A study of Ovis aries with 32 samples.

Results

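The circadian clock genes described here are PER1, PER2, PER3, CRY1, CRY2, ARNTL, NR1D1, NR1D2, DBP and TEF, measured in 4 fat depots of 8 female sheep. They were taken by symbol from the table of read counts, where all 10 were found among 28524 genes. The clock of mammalian cells is a feedback loop: the transcription factor ARNTL (also called BMAL1) pairs with CLOCK and switches on the PER and CRY genes, whose proteins return to the nucleus and hold ARNTL and CLOCK back. In a loop beside it, the nuclear receptors NR1D1 and NR1D2 (REV-ERB alpha and beta) repress ARNTL, while DBP and TEF are transcription factors that carry the rhythm to other genes. In fat, as in most tissues, ARNTL peaks at a time of day at which PER, NR1D and DBP are low, so the level of any of these genes depends on the hour of sampling, which is not given in the sources used here.

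The study models polycystic ovary syndrome in sheep by excess male hormone before birth. Mothers of the testosterone group were injected 2 times a week with 100 mg (1.2 mg/kg) of testosterone propionate in 2 ml of corn oil, from day 30 to day 90 of gestation. Control mothers were not given testosterone, and no dam gave more than 1 daughter to a group. All of the daughters, controls included, were studied as ovariectomized adults after hormone implants, 2 of progesterone for 14 days and then 4 of estradiol (30 mm) for 18 h. Each of the 4 control sheep (98, 131, 132 and 201) and 4 testosterone sheep (48, 185, 233 and 255) gave fat from the mesentery (visceral), below the skin over the sternum (subcutaneous), around the kidney (perirenal) and on the heart (epicardial), so each of the 8 groups held 4 libraries from different animals. P-values of testosterone effects measure the spread between animals, and those of depots the spread left after each animal's own level is taken out. Those of differences between animals measure the spread among the depots of a sheep.

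Libraries held 784135 to 8267824 counts. The adipocyte markers were present in every depot, with a summed level of 9940 to 24700 CPM in epicardial fat of control sheep and 28400 to 54900 CPM in their other depots. CPM are counts scaled to a common library size, from reads of the 3′ end of transcripts, so no length correction was applied, and levels of different genes also depend on how well the annotation covers each 3′ end. The subcutaneous library of testosterone sheep 48 and the visceral library of testosterone sheep 255 stood apart, with 38300 and 31700 CPM of transcripts known to retain introns against 1340 to 9350 CPM in the other 30 libraries. Cardiac muscle markers summed to as much as 12100 CPM in epicardial libraries of control sheep and 20000 CPM in those of testosterone sheep. In these bulk samples, fewer cells of a type cannot be told apart from less RNA per cell.

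The members differed widely in level. NR1D2 was at 40.9 to 129 CPM (median 84.0 over the 32 libraries), PER1 at 22.0 to 88.7 (median 37.5), CRY1 at 12.2 to 47.2 (median 25.4) and TEF at 8.48 to 67.9 (median 24.4). ARNTL lay at 6.74 to 51.4 CPM (median 22.6), CRY2 at 11 to 36.4 (median 20.1) and PER3 at 0.913 to 23.5 (median 8.17). DBP and PER2 were low, with medians of 1.44 and 1.23 CPM. The ranges of neighbours in this order overlapped, and those of CRY1, TEF, ARNTL and CRY2 overlapped almost entirely.

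NR1D1 was close to the limit of detection. It had 43 counts in all, 0 counts in 11 of 32 libraries and at most 6 counts in a library. Its level ran from 0 to 1.35 CPM, with group means of 0.101 to 0.446 CPM, and a library with no count allows 0.443 to 1.80 CPM at a floor of 3 counts. The libraries of a group together held 2 to 10 counts, which is little for a comparison of groups. NR1D1 was below the count filter, so its level is given without a test. RefSeq's genes for ARS-UI_Ramb_v3.0 place NR1D1 over THRA, the thyroid hormone receptor alpha gene, and reads of such a pair cannot be assigned with certainty where the strand setting is unknown. There CRY1 overlaps MTERF2 and TEF overlaps LOC121819234, which limits their counts likewise. The other 9 members were abundant enough for a test over the 32 libraries.

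**Figure D1:**
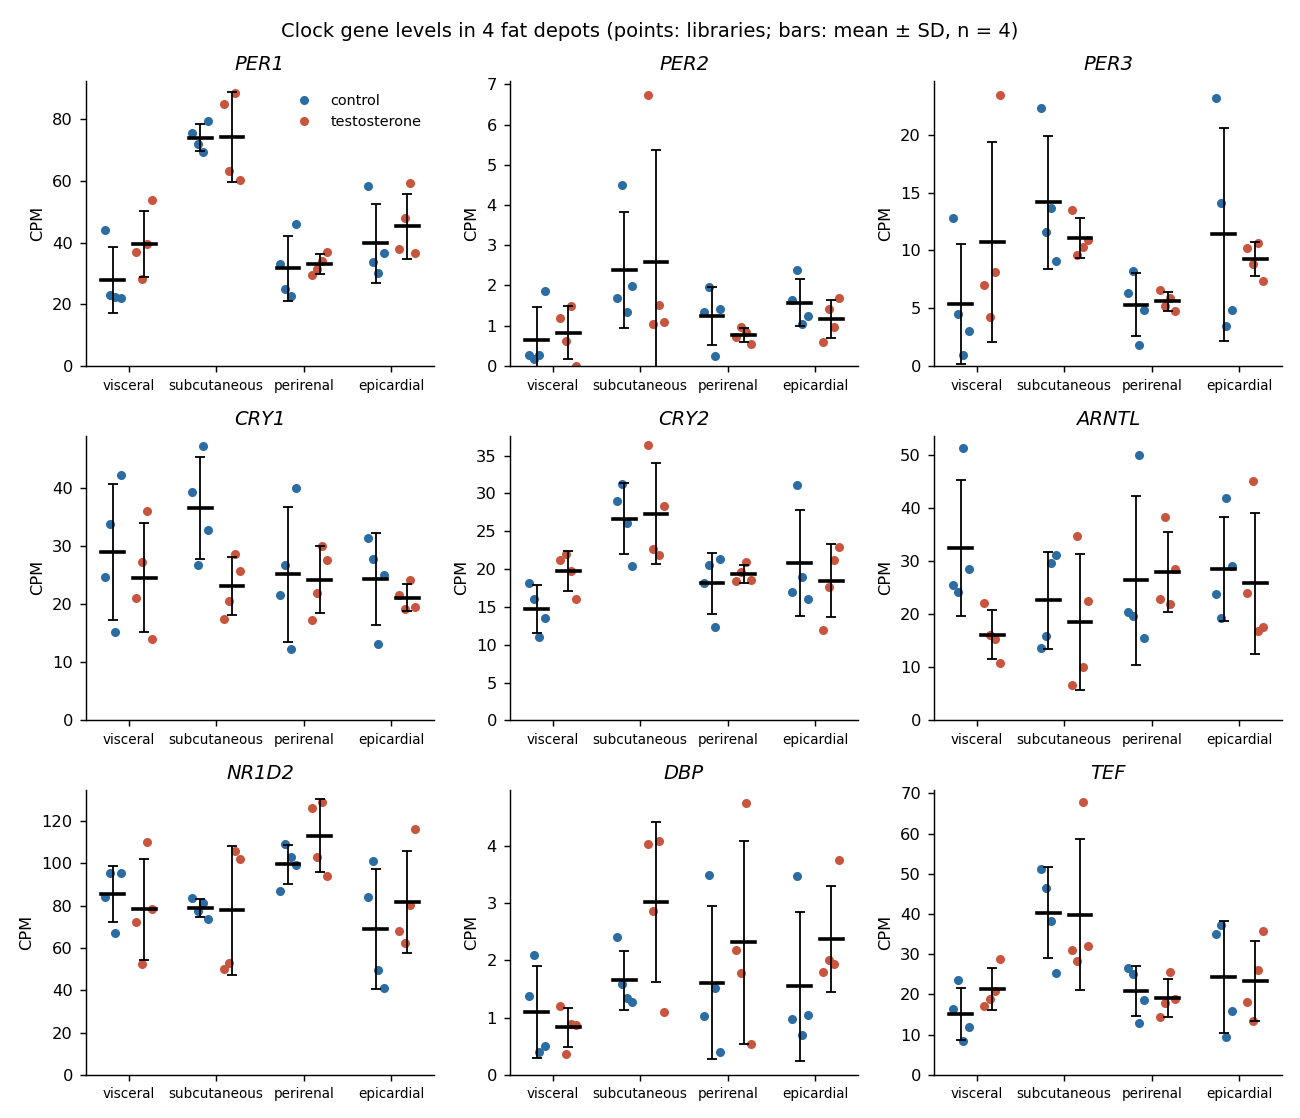
Level of 9 clock genes in CPM (y axis) in each depot (x axis), with 1 point per library, blue for control and red for testosterone sheep, and bars for mean ± SD (n = 4). PER1 in subcutaneous fat of control sheep, at 69.3 to 79.4 CPM, lies above all of their other libraries, while ARNTL spreads widely within each group.

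The first comparison asked whether clock genes differ among fat depots. In control sheep PER1, TEF, PER3 and CRY2 passed a test of the depots and were highest on average in subcutaneous fat. PER2, CRY1 and DBP, also highest there on average, did not pass, and neither did NR1D2, highest in perirenal fat (adjusted p = 0.11), nor ARNTL. In this joint test of the 4 depots, with the sheep as a block, 4 of the 9 members tested passed at an adjusted p under 0.05, against 39.9% of all genes tested, so the members' share is near the background. Among pairs of depots, 12 of 54 member-by-pair differences passed. Of these, 11 involved subcutaneous fat, and in all 11 the subcutaneous level was the higher. Calls were common among all 13369 genes tested as well. In the pairs with subcutaneous fat 1867 (visceral), 3158 (perirenal) and 3092 (epicardial) genes were called. Between visceral and perirenal fat 82 were, between visceral and epicardial fat 2923, and between perirenal and epicardial fat 3373.

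PER1, a repressor of the loop whose gene is also induced by hormonal and stress signals, differed most clearly. In subcutaneous fat of control sheep 98, 131, 132 and 201 it was at 75.5, 72, 69.3 and 79.4 CPM. In the same order visceral fat had 44.1, 23.1, 22.4 and 22.0 CPM, and the values were 33.2, 25.0, 22.7 and 46.0 in perirenal and 58.5, 33.7, 30.1 and 36.7 in epicardial fat. No subcutaneous library overlapped with any of the 12 others. By edgeR's quasi-likelihood test, the level was higher in subcutaneous than in visceral fat by a log2 fold change of 1.46 when read in that direction (visceral minus subcutaneous, -1.46, SE 0.20, adjusted p = 0.000229). The subcutaneous excess was 1.26 over perirenal (SE 0.20, adjusted p = 0.000397) and 0.95 over epicardial fat (SE 0.20, adjusted p = 0.00215), and all 4 sheep shared each direction.

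TEF, an output factor, followed the same order of depots. Subcutaneous fat of control sheep 98, 131, 132 and 201 had 51.1, 46.6, 38.2 and 25.3 CPM of TEF, and visceral fat 16.4, 23.6, 8.48 and 11.9 CPM. The 2 depots did not overlap, and the log2 difference, visceral minus subcutaneous, was -1.49 (SE 0.23, adjusted p = 0.000597). Perirenal libraries of TEF, at 26.6, 25.2, 12.9 and 18.7 CPM, were each lower than the subcutaneous library of the same sheep, with a subcutaneous excess of 0.99 (SE 0.22, adjusted p = 0.00478). Epicardial TEF, at 35.0, 37.2, 9.30 and 15.9 CPM, overlapped with the subcutaneous range, and the excess of 0.87 (SE 0.23, adjusted p = 0.01) fell to 0.51 (adjusted p = 0.0942) without sheep 132.

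PER3 had a wider spread between sheep. Its subcutaneous level was 22.3, 11.6, 13.7 and 9.04 CPM in control sheep 98, 131, 132 and 201, its visceral level 12.8, 4.52, 0.913 and 3.06 CPM, and its perirenal level 6.35, 8.20, 1.77 and 4.82 CPM. Each sheep had more PER3 in subcutaneous than in visceral or perirenal fat. The log2 difference, visceral minus subcutaneous, was -1.76 (SE 0.42, adjusted p = 0.0126), and subcutaneous minus perirenal was 1.56 (SE 0.42, adjusted p = 0.015). Sheep 132 widened both: without it they were -1.17 (adjusted p = 0.0589) and 1.06 (adjusted p = 0.0529), and the first had an adjusted p of 0.0549 without sheep 201. Epicardial PER3 ranged from 3.44 to 23.2 CPM and its difference from subcutaneous PER3 did not pass the test.

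CRY2, which acts with the PER proteins as a repressor, was at 29.0, 31.2, 26.1 and 20.4 CPM in subcutaneous and 18.2, 16.1, 11 and 13.6 CPM in visceral fat of the same sheep. These ranges did not overlap, and the log2 difference, visceral minus subcutaneous, was -0.86 (SE 0.20, adjusted p = 0.00949). It was past the threshold neither without sheep 131 (adjusted p = 0.0617) nor without sheep 132 (adjusted p = 0.0731). Against perirenal fat, at 12.4 to 21.3 CPM, CRY2 was 0.57 higher in subcutaneous fat (SE 0.20, adjusted p = 0.0473). That call was lost without sheep 98, 131 or 132 (adjusted p = 0.118, 0.143 and 0.243).

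PER2 and NR1D2 each differed in 1 pair of depots. PER2 was at 1.68, 4.50, 1.35 and 1.99 CPM in subcutaneous and at 0.273, 0.161, 0.261 and 1.87 CPM in visceral fat, which rests on 1 to 17 counts per library. The log2 difference of -1.88, visceral minus subcutaneous, had an SE of 0.60 and an adjusted p of 0.0436, which rose to 0.119 without sheep 98 and to 0.134 without sheep 132. NR1D2 was at 86.7, 109, 103 and 99.0 CPM in perirenal and 84.0, 101, 49.6 and 40.9 CPM in epicardial fat. It was 0.58 higher in perirenal fat (SE 0.20, adjusted p = 0.0384), a difference carried by sheep 132 and 201 (adjusted p = 0.189 and 0.182 without each).

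CRY1, ARNTL and DBP passed in no pair of depots. CRY1, at 24.3 ± 7.90 CPM (SD, n = 4) in epicardial and 36.5 ± 8.81 in subcutaneous fat of control sheep, had an adjusted p of 0.191 in the joint test, and ARNTL had 0.23. Mean ARNTL was 32.4 ± 12.8 CPM in visceral and 28.5 ± 9.84 in epicardial fat, and 26.4 ± 15.9 in perirenal and 22.6 ± 9.09 in subcutaneous fat, an order within the spread of the sheep. DBP stayed at 1.09 to 1.65 CPM on average in the 4 depots (adjusted p = 0.549).

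Read against all genes, the pairs with subcutaneous fat held most of these calls. Of the 9 members, 5 were lower in visceral than in subcutaneous fat (6.44% of all genes were), 4 were higher in subcutaneous than in perirenal fat (11.4% of all genes) and 2 were higher in subcutaneous than in epicardial fat (10.6%). Their median log2 difference was -0.86 for visceral minus subcutaneous and 0.69 for subcutaneous minus perirenal fat, where the medians of all genes were -0.01 and 0.01. In the other pairs, 1 member was higher in perirenal than in epicardial fat (12.4% of all genes), and edgeR called 0 members between visceral and perirenal fat (0.613% of all genes, with 1 member at an unadjusted p under 0.05) and 0 between visceral and epicardial fat (21.9%, with 5 members at an unadjusted p under 0.05). DESeq2 called 0 members in the first of these pairs and PER3 in the second (log2 difference -1.15, adjusted p = 0.0312).

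**Figure D2:**
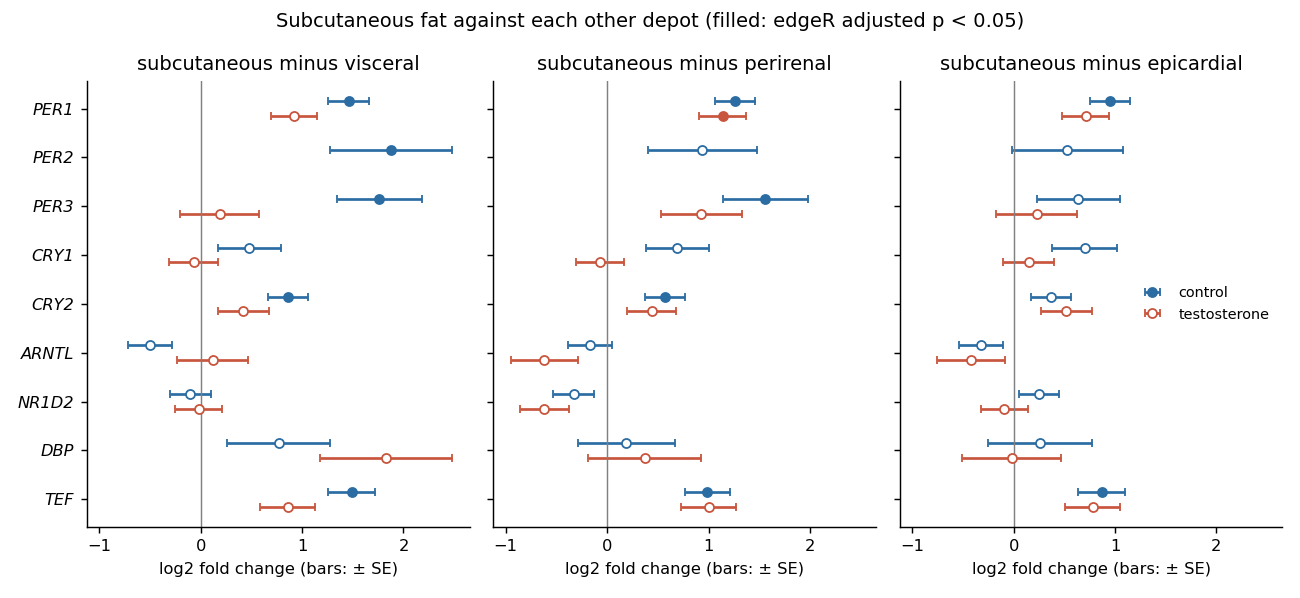
Log2 fold change of 9 clock genes (rows) in subcutaneous fat against visceral, perirenal and epicardial fat, with bars of ± SE, blue for control and red for testosterone sheep, filled where the edgeR adjusted p was under 0.05. Values to the right of 0 are higher in subcutaneous fat; the 11 filled control points all lie there, and PER2 was not tested in testosterone sheep.

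Other genes also differed between subcutaneous fat and some or all of the other depots. The summed level of 9 glucocorticoid-responsive genes was 3840 to 4890 CPM in subcutaneous fat of control sheep, above 2240 to 3300 in visceral, 2360 to 3030 in perirenal and 2040 to 2840 in epicardial fat. Among them, KLF9, a transcription factor induced by glucocorticoids, was 0.80 higher in subcutaneous than in perirenal fat (SE 0.14, adjusted p = 0.000831). The 5 measured transcripts known to retain introns were all higher in subcutaneous than in perirenal fat (11.4% of all genes were). Their sums were 2740 to 3960 and 1470 to 2020 CPM. Of these transcripts, 3 were lower in visceral than in subcutaneous fat (6.44% of all genes), and 0 differed between subcutaneous and epicardial fat. Epicardial sums, at 2460 to 3890 CPM, overlapped with the subcutaneous ones. Mesothelial markers summed to 1.27 to 3.15 CPM in subcutaneous fat and to 54.5 to 155 CPM in the other depots of control sheep, and T and NK cell markers to 9.59 to 24.1 against 36.8 to 98.5 CPM. The part of these transcripts and cells in the clock gene differences was not tested.

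In testosterone sheep PER1 again differed among depots. In their joint test 1 of 8 members passed, PER1 (adjusted p = 0.0239), against 4.82% of all genes, and TEF had an adjusted p of 0.087. PER1 was at 84.9, 63.1, 88.7 and 60.3 CPM in subcutaneous and 29.5, 31.6, 34.1 and 37.1 CPM in perirenal fat of sheep 48, 185, 233 and 255. These ranges did not overlap, and the log2 difference of 1.14 (SE 0.23, adjusted p = 0.0176) was the 1 pairwise call among 48. In that pair 2.23% of all genes were called, 0.932% as higher in subcutaneous fat. In the other pairs 0.664% (visceral and subcutaneous), 0.0820% (visceral and perirenal), 1.66% (visceral and epicardial), 4.50% (subcutaneous and epicardial) and 1.82% (perirenal and epicardial) of all genes were called. The PER1 difference was 1.04 (adjusted p = 0.0109) without the 2 libraries rich in intron-retaining transcripts. The adjusted p rose above the threshold without sheep 48, 185 or 233 (0.132, 0.109 and 0.145).

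Other differences of testosterone sheep did not pass. For PER1, visceral minus subcutaneous fat was -0.92 (SE 0.23, adjusted p = 0.0834), and subcutaneous minus epicardial fat was 0.71 (SE 0.23, adjusted p = 0.0917). TEF, with a subcutaneous excess over perirenal fat of 1.00 (SE 0.27), had an adjusted p of 0.0653. PER3, visceral minus subcutaneous, was at -0.19 (SE 0.39). DBP, low in counts, had the largest log2 differences. Visceral minus subcutaneous DBP was -1.83 (adjusted p = 0.266), minus epicardial -1.84 (0.186) and minus perirenal -1.46 (0.375). NR1D2 was higher in perirenal than in visceral (0.60, adjusted p = 0.362), subcutaneous (0.62, 0.165) and epicardial fat (0.53, 0.199). Whether depot differences depended on treatment was tested as an interaction over all 32 libraries. By edgeR 0 of 9 members passed, with 0 at an unadjusted p under 0.05 and 0 called by DESeq2, against 0.00703% of all genes. DESeq2 gave PER2 no adjusted p, so it could not be called by that method. The lowest unadjusted p was 0.0812, for PER3 (adjusted p = 0.994).

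The second comparison was between animals. Since the 4 depots of a sheep stand as repeated samples of that animal, a member can differ between sheep across depots. In control sheep 3 of 9 members passed a joint test of the 4 animals with the depot as a term, against 7.90% of all genes: ARNTL (adjusted p = 0.00498), TEF (0.0056) and PER3 (0.0171). DBP had an adjusted p of 0.0674 and PER1 of 0.102. The values below are log2 deviations of a library from the mean of its depot and treatment, averaged over the 4 depots of a sheep.

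ARNTL was highest on average in control sheep 132, at 51.4 CPM in visceral and 50.1 in perirenal fat, 42.0 in epicardial and 29.7 in subcutaneous fat. In subcutaneous fat sheep 201 was higher, at 31.1 CPM. The ARNTL deviation of sheep 132 was 0.72 (0.48 to 1.07 over the 4 depots), above the mean in 4 of 4 depots. Sheep 98 and 131 lay below the mean in 4 of 4 depots, at -0.32 and -0.38, and sheep 201 at -0.02 had 2 depots on either side. The call rested on sheep 132: without that animal the adjusted p for ARNTL was 0.577.

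TEF and PER3 ran the other way in the same animals. Sheep 132 had the lowest mean TEF deviation, -0.63 and below the mean in 4 of 4 depots, and sheep 201 was next, at -0.34 and again below in 4 of 4. Sheep 98 and 131 were above the mean in 4 of 4 depots, at 0.43 and 0.53. For PER3, sheep 98 was at 1.05 (above in 4 of 4 depots) and sheep 132 at -1.03 (above in 1 of 4). The PER3 call was lost without sheep 98 (adjusted p = 0.0854) or sheep 201 (0.0533), but the TEF call was not lost without any of the 4 sheep.

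In sheep 132, CRY2 (-0.25), PER2 (-0.64) and PER1 (-0.28) were also below the mean in 4 of 4 depots. CRY1 (-0.53) and DBP (-0.36) were each above it in 1 of 4 depots, and NR1D2 (-0.15) in 2 of 4. Sheep 98 had the highest PER1, with a deviation of 0.37, and sheep 131 the highest DBP, with 0.82. Among clock genes outside the 10, NFIL3, a repressor that competes with DBP and TEF for their sites, was above the mean in 4 of 4 depots of sheep 132, at 0.44. CLOCK deviated by 0.02 in that animal.

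In testosterone sheep 0 of 8 members passed the same test between animals, where 1.98% of all genes did. ARNTL, TEF and NR1D2 had unadjusted p-values under 0.05 by edgeR (adjusted p = 0.287, 0.248 and 0.274), and DESeq2 called 0 members. Sheep 185 had the highest ARNTL deviation, 0.65 and above the mean in 4 of 4 depots, while TEF (-0.32), NR1D2 (-0.37) and PER3 (-0.33) were below it in 4 of 4. In sheep 233 ARNTL was at -0.35 and below the mean in 4 of 4 depots. There NR1D2 (0.33) was above the mean in 4 of 4 depots and TEF (0.39) in 3 of 4, whereas PER3 was at 0.02. CRY1 and PER1, also above the mean in 4 of 4 depots of sheep 233 (0.37 and 0.19), were at -0.04 and -0.15 in sheep 185. CLOCK deviated by 0.37 in sheep 185 and by -0.37 in sheep 233, and NFIL3 by 0.12 and 0.28. The other animals did not share this opposition clearly. Sheep 48 had both ARNTL (-0.22) and TEF (-0.30) below the mean on average, and sheep 255 had ARNTL at -0.08 and TEF at 0.24.

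**Figure D3:**
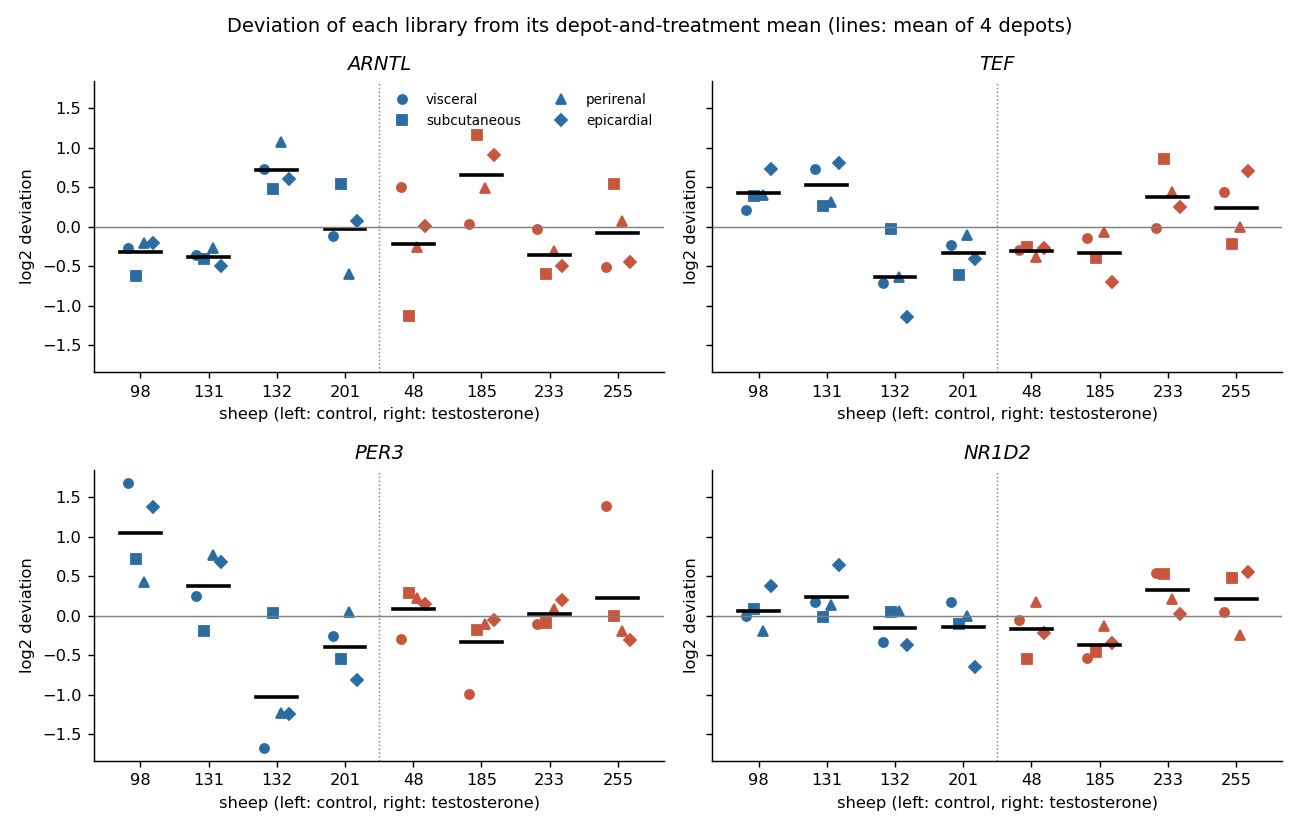
Log2 deviation (y axis) of ARNTL, TEF, PER3 and NR1D2 in each library from the mean of its depot and treatment, by sheep (x axis), with control sheep in blue, testosterone sheep in red, a marker shape per depot and lines at the mean of 4 depots. Sheep 132 and 185 are high in ARNTL (0.72 and 0.65) and low in TEF (-0.63 and -0.32). Sheep 201 and 48 are also low in TEF (-0.34 and -0.30) but not high in ARNTL (-0.02 and -0.22).

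The share of each member's variance (sum of squares of log2 CPM) that went with depot or with sheep describes the same values. In control sheep, PER1 was mostly a matter of depot, with 73.1% of its variance between depots and 14.6% between sheep. ARNTL was the reverse, with 13.9% between depots and 64.7% between sheep, and DBP had 9.38% and 57.6%. TEF was divided, with 46.2% and 41.5%. Over all genes the medians were 41.1% between depots and 17.6% between sheep. In testosterone sheep, where the medians of all genes were 28% and 20.5%, PER1 had 73.6% between depots and 6.48% between sheep. ARNTL had 27.5% and 32.1% there, and TEF 44.9% and 31.8%. DBP, low in counts, had 43.4% between depots and 15.7% between sheep, and the share of PER3 between sheep was 12.4% against 46.6% in control sheep.

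Within groups, libraries with more ARNTL tended to have less of the other members, TEF most clearly, though for several members mainly in control sheep. Over the 32 libraries, the Pearson correlation of ARNTL deviations with those of each of the other 8 tested members was negative, from -0.31 for NR1D2 to -0.68 for TEF (Spearman's rho -0.73 for TEF). PER3 was at -0.55 and CRY2 at -0.54. These are descriptions with no test, over 32 libraries that come from only 8 sheep and share library depth within each point. Counted from the lowest correlation with ARNTL among 14224 genes, TEF stood at place 15, PER3 at 106, CRY2 at 141 and PER1 at 506, and PER2 (884), DBP (1231), CRY1 (1464) and NR1D2 (1690) lay further from the end.

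The negative correlation of TEF with ARNTL was also found without sheep 132, whereas that of CRY1 was close to 0. Over the 28 libraries without sheep 132, the correlation with ARNTL was -0.60 for TEF, -0.43 for CRY2, -0.38 for PER3 and -0.08 for CRY1. Without the 2 libraries with the most extreme ARNTL deviations it was -0.66 for TEF, and without the 2 libraries rich in intron-retaining transcripts -0.76. In each case the deviations were still taken from group means that included the libraries left out. These values are therefore not free of those libraries. With the 4 depots of each sheep averaged, the 8 sheep gave -0.79 for TEF, -0.78 for PER3 and -0.73 for NR1D2. TEF against ARNTL was at -0.78 in the 16 control and -0.59 in the 16 testosterone libraries. In the same order CRY2 was at -0.79 and -0.29, PER3 at -0.73 and -0.36, and PER2 at -0.56 and -0.26. CRY1 was at -0.67 and 0.08, and NR1D2 at -0.42 and -0.24. PER1 (-0.46 and -0.45) and DBP (-0.34 and -0.37) were alike in both. The difference between treatments was not tested.

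**Figure D4:**
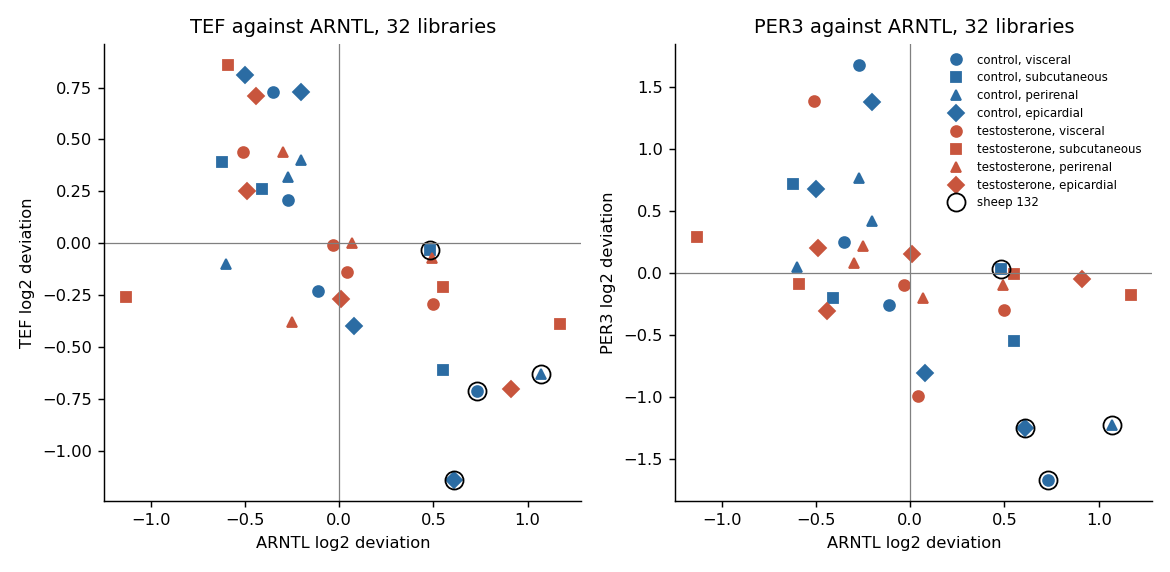
Log2 deviations of TEF (left) and PER3 (right) against those of ARNTL in 32 libraries, blue for control and red for testosterone sheep, a marker shape per depot and rings around the libraries of sheep 132. Libraries high in ARNTL lie low in TEF (r = -0.68) and in PER3 (r = -0.55).

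Pairs of the other 8 tested members had correlations of deviations from -0.06 (PER1 with DBP) to 0.64 over the 32 libraries. The highest were 0.64 for PER1 with PER3, 0.64 for PER3 with TEF, 0.63 for NR1D2 with TEF and 0.55 for PER2 with CRY2, while PER1 with PER2 and CRY1 with DBP were at 0. The treatments did not always share a sign: PER3 with CRY1 was at 0.59 in control and -0.57 in testosterone libraries, and PER3 with TEF at 0.83 and 0.18. The difference between treatments was not tested. Among clock genes outside the 10, NFIL3 (0.60), CLOCK (0.54) and NPAS2 (0.42), a relative of CLOCK, had positive correlations with ARNTL. CIART, a repressor of the ARNTL and CLOCK pair, was at -0.46.

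Among all genes, those with deviations most like ARNTL were LOC101102413 (r = 0.80), KCNN2 (0.77), POLR2D, LOC101107119 and SOD2 (0.75 each), and the least like it were LOC114116088 (-0.75), FEZ1 and MAFK (-0.72 each). For PER1 they were PROKR1 (0.79), WDR46 (0.77), GABRE (0.75), LOC114114252 (0.73) and SAT1 (0.72), and at the other end PDP2 (-0.75), PGM3 and GLRX3 (-0.73 each). For DBP they were ADCY6 (0.75), RRAGA (0.74), TSNARE1 (0.71), ADGRA2 and KAT2B (0.70 each), and at the other end LOC114113706 (-0.74), SMAD3 (-0.69) and HENMT1 (-0.67). DBP rests on low counts, so its list is the least certain.

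The third comparison asked whether testosterone before birth changed the clock genes of adult fat. By edgeR 0 members were called in any of the 4 depots, where 0% of all genes were called, with 1212 genes at an unadjusted p under 0.05 in visceral fat, 723 in epicardial, 691 in perirenal and 622 in subcutaneous fat. DESeq2 called 21, 24, 10 and 12 genes in these depots, among them 0 members. In epicardial fat it gave none of the members tested an adjusted p, so no call was possible there. Of 30 member-by-depot effects, 17 had a log2 fold change above 0 and 13 below it, from -1.01 to 0.93, with SEs of 0.16 to 0.73. With 4 sheep a group, even effects well beyond their SE did not pass, such as that of -1.01 (SE 0.30). Effects of such sizes could therefore have been missed. NR1D1 and PER2 were below the count filter in the fit of each depot, and DBP in those of visceral and epicardial fat.

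ARNTL in visceral fat came closest. It was at 25.6, 24.2, 51.4 and 28.6 CPM in control sheep 98, 131, 132 and 201, and at 22.2, 16.1, 15.3 and 10.9 CPM in testosterone sheep 48, 185, 233 and 255. The groups did not overlap, the case for 1 of the 7 members tested in visceral fat against 5.59% of all genes tested there. Summed adipocyte markers did not overlap either, at 33000 to 54900 CPM in visceral fat of control and 10500 to 32900 CPM of testosterone sheep, and their part in the ARNTL difference was not tested. Sheep 255, with the lowest ARNTL and the lowest adipocyte markers, gave the visceral library rich in intron-retaining transcripts, and without it the ARNTL effect was -0.89 (adjusted p = 0.634). With all 8 libraries the log2 fold change was -1.01 (SE 0.30, unadjusted p = 0.00703), which did not pass after adjustment (adjusted p = 0.521). Without control sheep 132 it was -0.70, and over the alternatives it ranged to -1.20, with adjusted p-values from 0.188 to 0.798. In subcutaneous, perirenal and epicardial fat ARNTL overlapped between groups, with effects of -0.21, 0.07 and -0.12 (SE 0.44, 0.36 and 0.35).

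The other members of visceral fat had effects of 0.49 for PER1 (SE 0.30), 0.48 for TEF (SE 0.33), 0.42 for CRY2 (SE 0.23) and 0.93 for PER3 (SE 0.73), all with overlapping groups. For PER3, with the widest error, control sheep had 12.8, 4.52, 0.913 and 3.06 CPM, and testosterone sheep 7.01, 4.21, 8.15 and 23.5 CPM. The 23.5 CPM came from sheep 255, whose visceral library was rich in intron-retaining transcripts. That library was also the highest of its group for PER1 (53.9 CPM) and TEF (28.7 CPM), and the lowest for CRY2 (16.1 CPM). CRY1 in subcutaneous fat was at 39.3, 26.7, 47.2 and 32.7 CPM in control and 17.5, 20.5, 28.6 and 25.7 CPM in testosterone sheep. These ranges overlapped, and the effect of -0.62 (SE 0.23, unadjusted p = 0.0215) had an adjusted p of 0.927. Of the remaining members, NR1D2 had effects between -0.13 and 0.26 in the 4 depots, with SEs of 0.16 to 0.30 and adjusted p-values of 0.871 to 1.

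The depots summed per sheep gave 0 of 9 members called, against 0.00654% of all genes, with 0 at an unadjusted p under 0.05 and 0 by DESeq2. The effect over depots was -0.32 (SE 0.29) for ARNTL, -0.21 (SE 0.20) for CRY1, 0.11 (SE 0.17) for PER1, 0.12 (SE 0.16) for NR1D2, -0.29 (SE 0.38) for PER2 and 0.43 (SE 0.43) for DBP. DBP, low throughout, was at 2.40, 1.59, 1.35 and 1.27 CPM in subcutaneous fat of control and 4.04, 2.86, 4.08 and 1.09 CPM of testosterone sheep, and its effect of 0.79 (SE 0.50) had an adjusted p of 0.927.

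**Figure D5:**
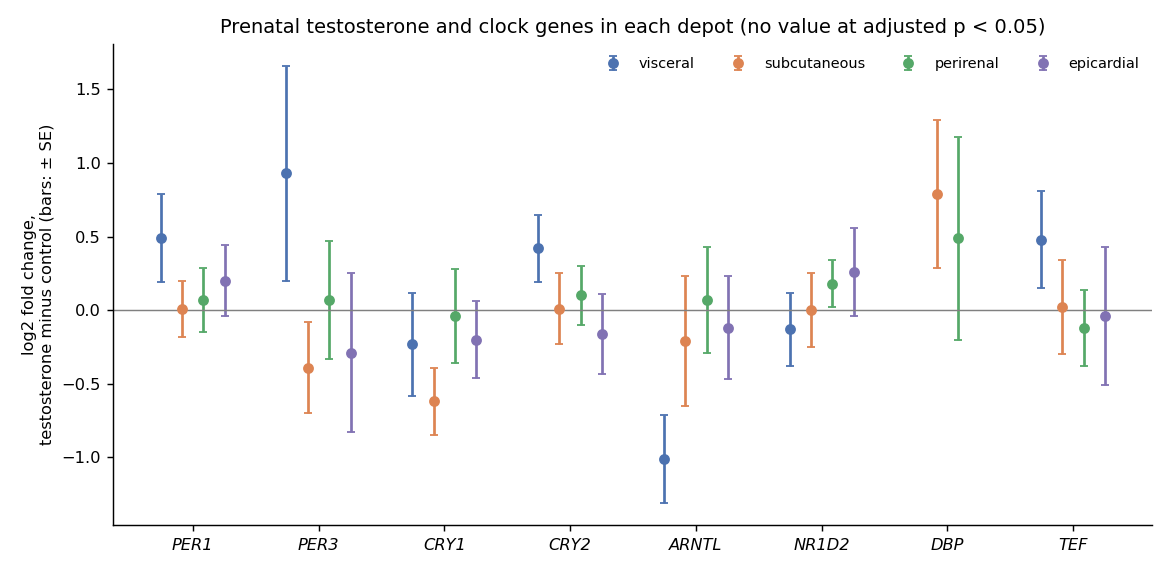
Log2 fold change, testosterone minus control (y axis, with bars of ± SE, n = 4 sheep a group), of 8 clock genes (x axis) in each depot, by colour. No value reached an adjusted p under 0.05; ARNTL in visceral fat (-1.01) is the lowest and PER3 in visceral fat (0.93) the highest, and DBP was below the count filter in visceral and epicardial fat.

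The wider clock list, of 19 other core and accessory genes, had 17 in the table and 14 tested in control sheep. Of these, 4 passed the joint depot test, against 39.9% of all genes: NFIL3 (adjusted p = 0.0162), RORA (0.0166), GSK3B (0.0338) and CSNK1D (0.049). RORA, an activator of ARNTL, was lower in epicardial fat, at 156 ± 23 CPM (SD, n = 4) against 237 to 261 on average in the other depots, and NFIL3 was also lowest there, at 60.8 ± 16.9 CPM. CLOCK was level, at 243 to 293 CPM on average. Between control sheep 2 of 14 passed, against 7.90% of all genes, BHLHE41 (adjusted p = 0.0115) and FBXW11 (0.0307). In testosterone sheep 0 of 15 passed the depot test by edgeR (1 at an unadjusted p under 0.05), against 4.82% of all genes. Between these sheep 1 of 15 passed, against 1.98% of all genes, CIART (adjusted p = 0.00856), whose mean deviation was 1.52 in sheep 233 and -0.94 in sheep 185.

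Of the clock output list, 6 of 7 tested genes passed the depot test in control sheep, against 39.9% of all genes. NAMPT, the rate-limiting enzyme of NAD salvage, was at 132 ± 37.5 CPM (SD, n = 4) in subcutaneous and 78.1 ± 12 in visceral fat (log2 difference, visceral minus subcutaneous, -0.75, SE 0.19, adjusted p = 0.0136). NOCT, a rhythmic phosphatase, was at 20.4 ± 5.28 in subcutaneous and 8.01 ± 2.05 CPM in epicardial fat, 1.37 higher (SE 0.23, adjusted p = 0.000346). KLF11, at 303 ± 25.5 CPM, was also highest in subcutaneous fat, while LPIN1 was lowest in epicardial fat at 103 ± 22.5 CPM. USP2 ran otherwise, with 8.41 ± 7.61 CPM in epicardial and 1.58 ± 0.748 in visceral fat.

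Glucocorticoid-responsive and immediate early genes, which hormones and handling can induce beside the clock, were listed for comparison. In control sheep 7 of 9 glucocorticoid-responsive and 11 of 18 immediate early genes passed the depot test, against 39.9% of all genes. Both ZBTB16 and KLF9 were lower in visceral than in subcutaneous fat (log2 difference -1.03 and -0.60, SE 0.14 each, adjusted p = 0.000269 and 0.00862). JUNB, an immediate early gene, was highest in epicardial fat, at 207 ± 84.0 CPM against 72.7 ± 27.3 in subcutaneous fat. Between control sheep, 2 of 9 glucocorticoid-responsive genes passed, TSC22D3 (adjusted p = 0.00112) and FKBP5 (0.0148), against 7.90% of all genes. Sheep 132 was below the mean in 4 of 4 depots for both (-0.68 and -0.28), while sheep 98 was above it for FKBP5 (0.46) and below it for TSC22D3 (-0.37). The part of hormone level or handling in the clock gene differences was not tested.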

How the data were processed

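The authors deposited a table of raw read counts per gene, not normalized, for 32 libraries made with a 3′ end kit from total RNA with an integrity number of at least 7, per the labels' protocols. The submitters' processing notes name STAR and featureCounts 1.6.1 beside Trimmomatic 0.36, FastQC 0.11.5, MultiQC 0.9, DESeq2 1.24.0 and R 3.6.3, without their roles. Not given in the sources used here are the genome build, annotation and strand setting.

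CPM were computed from the deposited counts in R 4.3.3 by edgeR 4.0.16 with TMM factors of 0.882 to 1.11. Tests were edgeR's quasi-likelihood test (robust fit, filterByExpr at a minimum count of 10, p-values adjusted by Benjamini-Hochberg over every gene in a fit, threshold 0.05). The SE was taken from the log2 fold change and F (fold change over the root of F). Depot tests used the sheep as a block within the 16 libraries of a treatment, the test between sheep used the depot as a term, testosterone effects used the 8 libraries of a depot or counts summed over the depots of a sheep, and the interaction used all 32 libraries. Deviations are log2 CPM with a prior count of 2, minus the group mean. The code was tested on simulated data.

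The block rests on the design, in which 1 animal gave 4 depots: of 48 correlations between depots within a sheep, 41 were over 0.1 (mean 0.23, from -0.12 to 0.48). Of 48 pairs of replicate libraries, 0 were identical, with chi-square values per degree of freedom of 8.58 or more. Floors of 3 counts cover counting error only.

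All 10 members are reported, NR1D1 by level only. Up to 5 genes of each other list were eligible to be named, by smallest p in the depot test of control sheep, and others (such as CLOCK, CIART and FKBP5) were named after their values were seen. For ARNTL, PER1 and DBP, the 5 most and 3 least correlated genes are named. Members and lists were chosen with earlier results of these data known. Alternatives were DESeq2 1.42.0, other normalizations, no filter, no block, each sheep left out, and the 2 libraries rich in intron-retaining transcripts left out.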

Additional observations from a re-analysis of the deposited data

Results flagged for a closer look

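In 8 of 72 groups of 4 libraries, a single library lay far from the other 3 for a member (by Dixon's 95% critical value for 4 samples). Chance flags about 1 in 20 groups where values are normal. CPM were used here without a transformation, and all 8 flags were at the high end, so that rate need not apply. ARNTL in control sheep 132 was at 51.4 CPM in visceral fat (the others at 24.2 to 28.6) and at 50.1 CPM in perirenal fat (15.5 to 20.5). PER1 in visceral fat of control sheep 98 was at 44.1 CPM (22.0 to 23.1). TEF in subcutaneous fat of testosterone sheep 233 was at 67.9 CPM (28.3 to 32.0).

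The other 4 were in genes of low counts. PER2 was at 1.87 CPM in visceral fat of control sheep 201 (0.161 to 0.273 in the others). It was at 6.74 CPM in subcutaneous fat of testosterone sheep 48 (1.04 to 1.51), which is 5 counts in the shallowest library. DBP in epicardial fat was at 3.48 CPM in control sheep 131 (0.689 to 1.04) and at 3.76 CPM in testosterone sheep 255 (1.80 to 2.01).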

How the results depend on the processing

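Direction was checked for the called pairwise fold changes and for testosterone effects at an unadjusted p under 0.05 by edgeR, and none of these changed it under any alternative. The direction of the other fold changes was not checked, and joint tests have none. In control sheep the joint depot test called 4 members, and 1 with no replicate block (3 to 6 when each sheep was left out). Pairwise calls fell from 12 to 5 with no replicate block, and ranged from 6 (without sheep 132) to 13 when each sheep was left out. In testosterone sheep, the joint depot test called 1 member, 2 by DESeq2 (0 without sheep 48, 185 or 233, and 2 without sheep 255). Pairwise calls were 1, and 3 by DESeq2, 2 with plain library totals, 2 without the 2 libraries rich in intron-retaining transcripts, and 0 to 5 when each sheep was left out. Between control sheep, 2 to 3 members were called when each sheep was left out. Calls of testosterone effects and of the interaction were 0 in every setting. By DESeq2 no call was possible for members in epicardial fat or for PER2 in the interaction, which had no adjusted p. The 3 pairwise calls of PER1 in control sheep, and that of TEF between visceral and subcutaneous fat, passed in every setting run. CRY2 between subcutaneous and perirenal fat was lost with RLE factors (adjusted p = 0.0506) and with no filter (0.0817), PER2 between visceral and subcutaneous fat with no filter (0.0511), and NR1D2 between perirenal and epicardial fat with plain library totals (0.0999). Where calls moved, the cause was not tested. Low counts limit PER2, DBP and NR1D1.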
